A study of Mus musculus with 36 samples.

Results

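The WNT pathway was followed through 50 of its genes during BMP4-induced primed to naïve transition (BiPNT), in which mouse epiblast stem cells (EpiSCs, the primed pluripotent state) are converted to naïve pluripotent cells. The members were chosen by name and role, with earlier results of these data known. They comprise 19 WNT ligands, 10 Frizzled receptors, 2 LRP co-receptors, 2 genes of ligand secretion and 4 of β-catenin and its destruction complex. The others are 4 TCF/LEF factors, 4 feedback targets, 3 secreted antagonists and 2 genes of the R-spondin axis. All 50 were found among the 50600 genes listed for the sorted Day 3 cells and among the 29267 listed for the other libraries. RNA-seq was available as 11 libraries, deposited as RSEM expected counts and as TPM (transcript abundance, which scales each gene to its transcript length and to the total of the library).

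The agents in the media act on this pathway themselves. EpiSCs (3 libraries) were kept in N2B27 with Activin A, bFGF and 1 μM XAV939, a tankyrase inhibitor that stabilizes Axin. Day 3 cells had spent 3 days in stage 1 medium, which held vitamin C, bFGF, LIF, 5 mM LiCl and 1 μM CHIR99021 (both inhibitors of GSK3), BMP4, the EZH2 inhibitor EPZ6438 and a DOT1L inhibitor. They were sorted with an antibody to the receptor c-Kit into c-Kit+ and c-Kit- cells (2 libraries each). BV+SC+ cells (2 libraries) carry the Blimp1-mVenus and Stella-CFP reporters and were sorted for both at Day 6, after stage 1 medium with EPZ5676 as the DOT1L inhibitor and then, by the protocol given for both libraries, N2B27 with vitamin C, 3 μM CHIR99021 and PD0325901. The labels also carry a different medium tag for each, 2iJi for replicate 1 and GK15 for replicate 2, so it is in doubt whether replicate 2 had CHIR99021 in stage 2, and replicate and medium cannot be told apart. The last pair is 1 library of Day 3 cells with the DOT1L inhibitor SGC0946 and 1 without it, known from their titles. No source used here says whether replicates came from separate cultures, so p-values measure the spread between these libraries, which may be technical.

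WNT proteins are secreted lipid-modified ligands: Porcupine (*Porcn*) adds the lipid and Wntless (*Wls*) carries the ligand to the surface. A ligand bridges a Frizzled receptor and LRP5 or LRP6, which stops the complex of Axin, APC and GSK3 from marking β-catenin for degradation, and β-catenin then turns TCF/LEF factors from repressors into activators. *Axin2*, *Sp5*, *Nkd1* and *Notum* are among the genes switched on in turn, and several of them restrain the pathway. In mouse pluripotent cells inhibition of GSK3 favours the naïve state, in part by relieving repression by TCF7L1, and WNT signals also act in the specification of mesoderm and primordial germ cells.

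Depth was 1726038 to 1841442 expected counts in the sorted Day 3 libraries, 2444211 to 3070115 in EpiSCs, 14778809 and 18099059 in BV+SC+ cells, and 4776143 and 4577685 with and without SGC0946. The sorted gene itself followed its label, with *Kit* at 96.0 and 99.6 TPM in c-Kit+ cells and between 3.24 and 4.81 TPM in c-Kit- cells. Markers differed with the sort. The 8 trophoblast markers examined summed to between 6320.1 and 6894 TPM in c-Kit- cells and to between 1356 and 1596 TPM in c-Kit+ cells, while *Pou5f1*, *Sox2* and *Nanog* summed to 64.3 to 74.4 TPM and to 1567 to 1631 TPM, with *Nanog* listed at 0 in 1 c-Kit- library and *Sox2* in the other. Trophoblast genes called lower in c-Kit+ cells were 6 of the 8. The 7 germ cell and naïve markers summed to 287.0 and 316.7 TPM in c-Kit- cells and to 572.2 and 700.8 TPM in c-Kit+ cells, with 5 called higher. The 6 mesoderm markers summed to 3.46 and 3.48 TPM against 20.1 TPM in both c-Kit+ libraries, and *Eomes*, the only 1 tested, was called higher. The 5 primed epiblast markers summed to 78.2 and 84.4 TPM against 65.3 and 67.5 TPM, with *Otx2* called higher and *Pou3f1* lower. The 6 fibroblast markers summed to 161.0 and 136.0 TPM in c-Kit- cells against 55.9 and 44.4 TPM in c-Kit+ cells, with *Col1a1*, *Col1a2* and *Thy1* called lower. The 6 endoderm markers summed to 23.9 and 36.9 TPM against 16.6 and 8.14 TPM, with *Sox17* called lower and *Foxa1* not called. *Gata6* of this list was not tested and went the other way, at 0 and 0.67 TPM in c-Kit- cells against 2.62 and 4.26 TPM in c-Kit+ cells. Mitochondrial genes took 2.07% and 3.04% of the counts in c-Kit- cells and 3.71% and 4.09% in c-Kit+ cells. These are bulk samples, so fewer cells of a type and less RNA per cell cannot be told apart. The floor of a group was set at 3 counts in each of its libraries. In the sorted libraries 3 counts make 1.63 to 1.74 CPM (counts scaled to the library total), in EpiSCs 0.977 to 1.23 CPM, and in BV+SC+ cells 0.203 and 0.166 CPM, which covers counting error only.

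**Figure D1:**
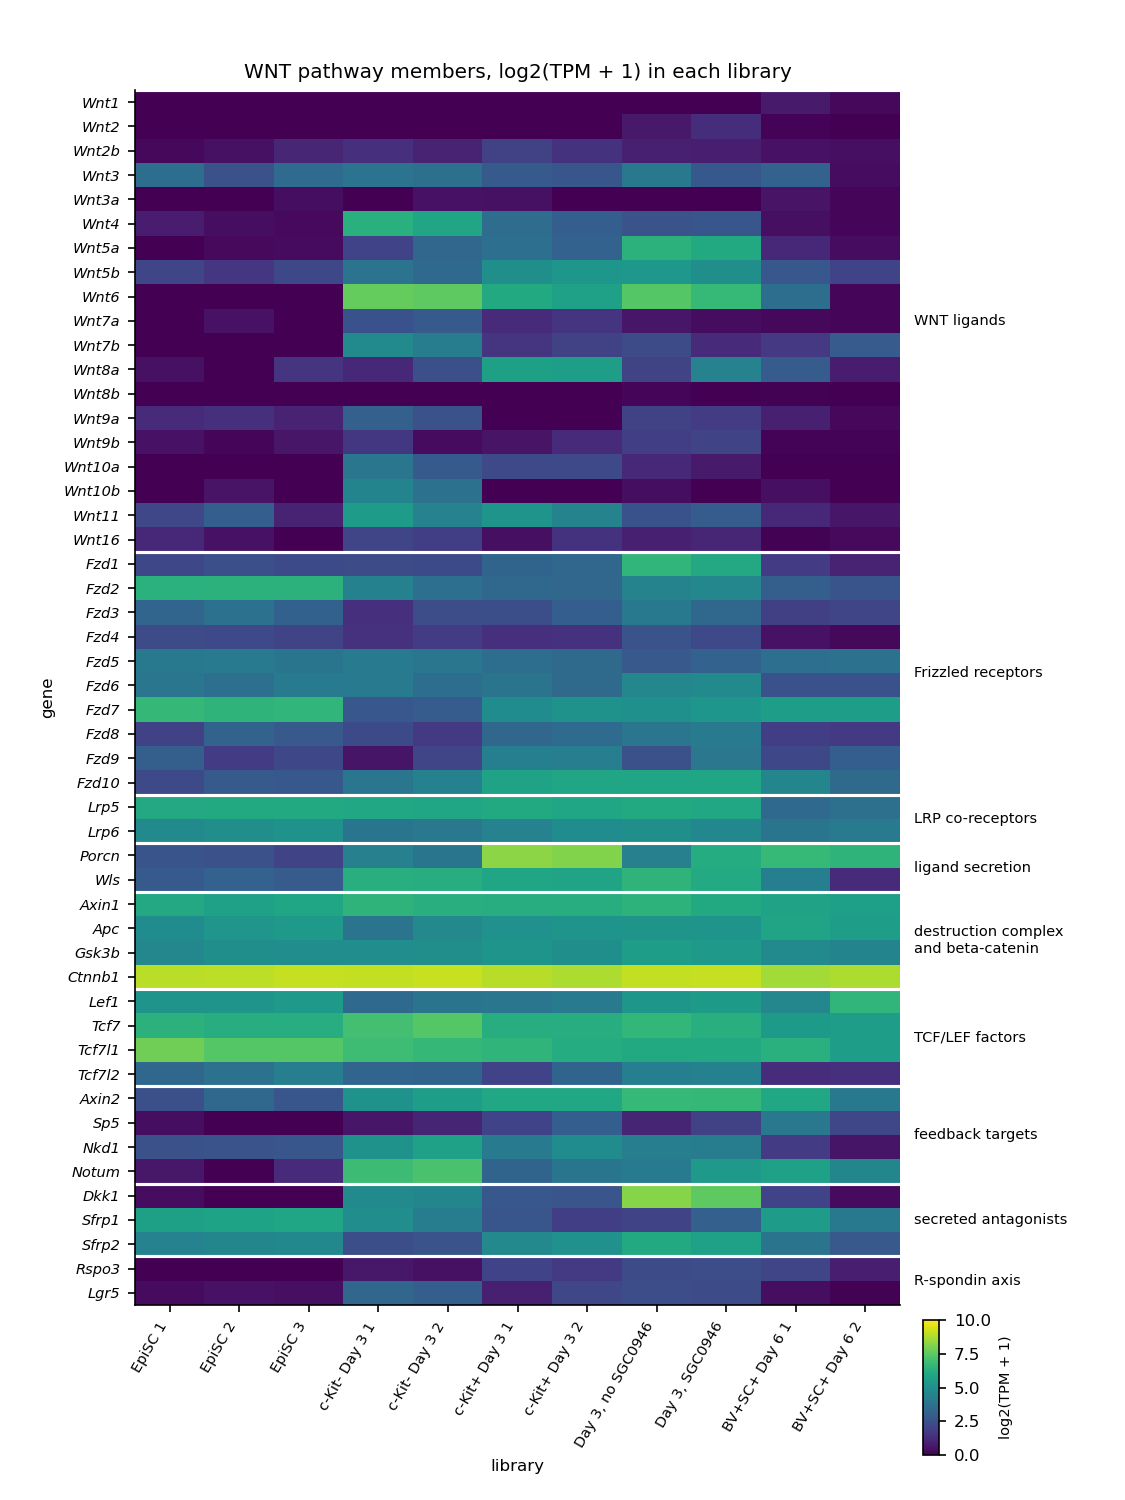
Heat map of log2(TPM + 1) for the 50 members (rows, grouped by role) in the 11 libraries (columns, with replicate numbers). *Ctnnb1* is the most abundant member in every library, and most ligand rows are near 0 in EpiSCs while *Wnt4* and *Wnt6* stand out in the c-Kit- columns and *Porcn* in the c-Kit+ columns. The sorted libraries and the others come from separate experiments.

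The first comparison asked which WNT genes separate the Day 3 cells that carry c-Kit from those that do not. Most ligands that passed the test were lower in c-Kit+ cells, led by *Wnt4*, *Wnt6*, *Wnt7b* and *Wnt10b*, while *Wnt8a*, *Wnt5a* and *Wnt5b* were higher. All 5 Frizzled genes that passed (*Fzd1*, *Fzd7*, *Fzd8*, *Fzd9* and *Fzd10*) were higher in c-Kit+ cells, and so was *Porcn*, by 19.6-fold. *Notum*, *Nkd1*, *Dkk1*, *Sfrp1* and *Lgr5* were lower and *Sfrp2* was higher. The destruction complex, the co-receptors and the TCF/LEF factors did not pass at 2-fold.

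In numbers, 10 members were called higher and 12 lower in c-Kit+ cells, at an adjusted p under 0.05 with a fold over 2 by edgeR's quasi-likelihood test, Benjamini-Hochberg adjusted over 11018 genes. Of all genes tested, 9.98% were called higher and 12.9% lower, while the members called make 20.0% and 24.0% of the 50, or 24.4% and 29.3% of the 41 tested. Both lie above those of all genes, but the share of those tested counts only members that passed a filter on low counts, which a gene can pass through the group where it is high. The other 9 members were not tested. Of the 9, 4 (*Wnt1*, *Wnt2*, *Wnt3a* and *Wnt8b*) were at the floor in both populations and 5 had too few counts to pass the filter. The median log2 fold change of the 41 members tested was -0.18, against 0.03 over all genes tested. Setting the 2 genes without a count in c-Kit+ cells to their bounds could not move this median, since both stay below it.

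Among the ligands, *Wnt6* was the most abundant in both populations. It stood at 197 and 184 TPM in the c-Kit- libraries and at 66.3 and 51.4 TPM in the c-Kit+ libraries, without overlap, and was 2.94-fold lower in c-Kit+ cells (log2 fold change -1.55 ± 0.137 SE, adjusted p = 3.31e-05). *Wnt4*, a ligand of kidney and gonad development, was at 79.9 and 57.1 TPM against 10.9 and 6.91 TPM (-2.80 ± 0.24, adjusted p = 2.7e-05). *Wnt7b*, which is needed in the mouse placenta, was at 26.6 and 18.1 TPM in c-Kit- cells and at 1.86 and 2.88 TPM in c-Kit+ cells (-3.07 ± 0.372, adjusted p = 0.000203). Each of these ligands kept a measurable level in c-Kit+ cells. *Wnt10b* did not: it was at 22.1 and 12.7 TPM in c-Kit- cells and had no count in either c-Kit+ library, so it was at least 11.4-fold lower there against 3 counts per library (adjusted p = 0.000434). Another 3 ligands were called lower at smaller levels, *Wnt9a*, *Wnt10a* and *Wnt7a*, between 4.51 and 14.2 TPM in c-Kit- cells and between 0 and 3.65 TPM in c-Kit+ cells. *Wnt9a* had no count in c-Kit+ cells and was at least 5.87-fold lower (adjusted p = 0.00135), and without c-Kit- replicate 1 it did not pass the filter. By contrast, *Wnt10a* (adjusted p = 0.0383) and *Wnt7a* (adjusted p = 0.034) were close to the threshold. The call of *Wnt7a* was lost with any of the 4 libraries left out (adjusted p from 0.0673 to 0.215), with DESeq2 (0.22) and with an offset for the effective transcript length of each library (0.055). The call of *Wnt10a* was lost with c-Kit- replicate 1 or either c-Kit+ library left out (0.0748 to 0.365), with DESeq2 (0.129) and with the length offset (0.107).

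The ligands that were higher in c-Kit+ cells were fewer. *Wnt8a*, a ligand of the early posterior embryo, was at 50.8 and 46.1 TPM in the c-Kit+ libraries against 1.24 and 4.39 TPM in the c-Kit- libraries, an 18.6-fold difference (log2 fold change 4.21 ± 0.405 SE, adjusted p = 5.19e-05). Without c-Kit- replicate 1 the log2 fold change of *Wnt8a* was 3.56, and without c-Kit- replicate 2 it was 5.32. *Wnt5b* was at 30.7 and 36.7 TPM against 12.9 and 9.74 TPM (1.68 ± 0.28, adjusted p = 0.00126). Like *Wnt5b*, *Wnt5a* is best known for β-catenin-independent signalling. Its counts were called higher in c-Kit+ cells (1.44 ± 0.335, adjusted p = 0.00748), but its TPM of 11.6 and 7.90 overlapped the 3.08 and 8.78 of c-Kit- cells, and with the length offset the call was lost (adjusted p = 0.146), as it was without c-Kit+ replicate 1 (0.0757). *Wnt3*, the ligand that starts gastrulation, was at 6.13 and 5.38 TPM in c-Kit+ cells against 13.1 and 11.9 TPM and missed the 2-fold limit (-0.97 ± 0.329, adjusted p = 0.04), which it passed without c-Kit- replicate 2 (-1.07). *Wnt11* was not called. The 19 ligands summed to 435 and 348 TPM in c-Kit- cells and to 223 and 189 TPM in c-Kit+ cells. Beside these differences stand those of the markers and of the mitochondrial share given above. The markers include those of trophoblast, fibroblasts and endoderm and those of pluripotency, germ cells and mesoderm. Their part in the levels of ligands and other members was not tested.

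The 5 Frizzled genes called were all higher in c-Kit+ cells, and the other 5 were not called. *Fzd7* was at 27.8 and 34.5 TPM in c-Kit+ cells and at 5.55 and 6.56 TPM in c-Kit- cells, a 5.65-fold difference (log2 fold change 2.50 ± 0.234 SE, adjusted p = 4.5e-05). *Fzd10*, the most abundant Frizzled gene in c-Kit+ cells, was at 53.8 and 57.2 TPM against 14.3 and 20.1 TPM (1.83 ± 0.201, adjusted p = 0.000111). *Fzd9* was at 18.9 and 18.4 TPM in c-Kit+ cells and at 0.47 and 3.30 TPM in c-Kit- cells (3.41 ± 0.555, adjusted p = 0.00111), with 2.60 without c-Kit- replicate 1 and 5.27 without c-Kit- replicate 2. In each of these 3 genes the populations did not overlap. *Fzd8* and *Fzd1* were also higher, at 8.43 to 10.2 TPM in c-Kit+ cells and 2.24 to 4.0 TPM in c-Kit- cells (adjusted p = 0.00755 and 0.0137). The call of *Fzd1* was lost with either c-Kit+ library left out (adjusted p = 0.0579 and 0.0883) and with DESeq2 (0.109), and that of *Fzd8* without c-Kit+ replicate 2 (0.0695). The genes not called (*Fzd2* to *Fzd6*) had log2 fold changes between -0.69 (*Fzd2*) and 1.14 (*Fzd3*). Without c-Kit- replicate 2 both of these were called (-1.06 and 1.99). Of the co-receptors, *Lrp6* was 1.78-fold higher in c-Kit+ cells (0.83 ± 0.148, adjusted p = 0.0019), under the 2-fold limit, and *Lrp5* was not called (0.23 ± 0.141).

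*Porcn*, an X-linked gene at chrX:8193848-8206525 on the minus strand of GRCm38, had the smallest p-value of the members. It was at 306 and 271 TPM in the c-Kit+ libraries and at 19.5 and 13.9 TPM in the c-Kit- libraries (log2 fold change 4.30 ± 0.154 SE, adjusted p = 5.82e-07). *Wls*, its partner in ligand secretion, was at 58.1 and 56.7 TPM against 76.7 and 73.6 TPM and was not called (-0.32 ± 0.138, adjusted p = 0.0937). The 2 genes of the secretion route therefore took different positions in the sort, *Porcn* 19.6-fold higher in c-Kit+ cells and *Wls* 1.25-fold lower.

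Inside the cell the members differed little. *Ctnnb1*, which encodes β-catenin, was at 489 and 440.2 TPM in c-Kit+ cells and at 539.7 and 578 TPM in c-Kit- cells (log2 fold change -0.32 ± 0.0881 SE, adjusted p = 0.0175, under 2-fold). *Gsk3b* was at 35.1 and 30.6 TPM against 29.0 and 29.6 TPM (0.37 ± 0.13, adjusted p = 0.0484), and *Axin1* differed by 0.10 ± 0.118. *Apc* was at 32.6 and 35.5 TPM against 13.3 and 25.3 TPM and was not called (0.88 ± 0.357, adjusted p = 0.0746), but was called higher without c-Kit- replicate 2 (1.83). So none of the 4 members of this class passed at 2-fold. Among the TCF/LEF factors, *Tcf7* was 1.84-fold lower in c-Kit+ cells, at 73.5 and 73.2 TPM against 129 and 162 TPM (-0.88 ± 0.148, adjusted p = 0.00136), and passed 2-fold without c-Kit- replicate 1 (-1.05). *Tcf7l1*, the repressor of the family, was at 91.1 and 72.9 TPM against 117 and 100.7 TPM and was not called (adjusted p = 0.193). *Lef1* was at 14.4 and 16.9 TPM against 9.82 and 13.4 TPM (adjusted p = 0.167), and *Tcf7l2* at 3.03 and 8.43 TPM against 8.60 and 8.16 TPM (adjusted p = 0.248), neither of them called.

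The feedback targets did not move as a block. *Axin2*, a widely used read-out of β-catenin activity, was at 60.8 and 62.2 TPM in c-Kit+ cells and at 33.2 and 46.3 TPM in c-Kit- cells, 1.62-fold higher (log2 fold change 0.69 ± 0.20 SE, adjusted p = 0.0202) and under the 2-fold limit. *Notum*, a secreted esterase that removes the lipid from WNT proteins, was at 8.31 and 13.7 TPM against 114 and 139 TPM, which is 9.50-fold lower (-3.25 ± 0.237, adjusted p = 1.02e-05). An antisense gene, *Notumos*, overlaps 29.4% of the exon bases of *Notum*, and whether the counting used strand is not given in the sources used here. *Nkd1*, an inhibitor of Dishevelled, was at 16.1 and 27.9 TPM against 33.6 and 52.1 TPM (-1.09 ± 0.245, adjusted p = 0.00625), and fell under 2-fold without c-Kit- replicate 2 (-0.94) or c-Kit+ replicate 1 (-0.90). With the effective length offset the call of *Nkd1* was lost (-0.83, adjusted p = 0.095). *Sp5*, a direct target in many tissues, was too low to be tested, at 3.03 and 7.04 TPM against 0.51 and 1.03 TPM. Its summed counts were 7.32-fold higher in c-Kit+ cells, with a 95% counting interval of 2.19 to 38.3 (exact Clopper-Pearson).

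The 250 bases before the start of *Axin2*, *Sp5* and *Dkk1* are shown. *Sp5* and *Dkk1* were picked for their letters, as the only member windows with at least 2 of the TCF/LEF cores searched for. *Axin2* was added by name as a widely used read-out. These stretches come from RefSeq on GRCm38.p6, at chr11:108920099-108920348 (plus strand), chr2:70474673-70474922 (plus strand) and chr19:30549497-30549746 (minus strand). Capitals mark the TCF/LEF core searched for, CTTTGAA and its forms that end in AT or in TA or in TT, on either strand.
Axin2: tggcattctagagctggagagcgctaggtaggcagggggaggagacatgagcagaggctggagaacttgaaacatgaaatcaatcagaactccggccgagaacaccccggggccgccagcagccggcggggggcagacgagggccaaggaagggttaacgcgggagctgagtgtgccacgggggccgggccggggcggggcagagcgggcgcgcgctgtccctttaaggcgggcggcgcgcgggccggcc
Sp5: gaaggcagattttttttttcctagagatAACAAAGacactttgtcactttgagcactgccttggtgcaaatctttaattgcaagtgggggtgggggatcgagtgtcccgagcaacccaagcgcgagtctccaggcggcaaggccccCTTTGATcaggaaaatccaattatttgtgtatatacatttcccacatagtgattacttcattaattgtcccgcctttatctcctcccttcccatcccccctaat
Dkk1: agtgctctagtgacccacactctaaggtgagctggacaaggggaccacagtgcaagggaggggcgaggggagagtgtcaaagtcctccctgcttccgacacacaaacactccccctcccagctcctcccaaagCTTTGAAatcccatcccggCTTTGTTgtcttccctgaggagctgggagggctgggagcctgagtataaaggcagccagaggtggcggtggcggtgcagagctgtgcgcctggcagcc
*Sp5* holds a core on the minus strand (written AACAAAG) that begins 222 bases before the start and another on the plus strand (CTTTGAT) 104 bases before it. *Dkk1* holds CTTTGAA 117 bases and CTTTGTT 98 bases before the start, and this stretch of *Axin2* holds none of these letters. Over windows from 250 bases before to 50 bases after a start, 16.9% of 32851 windows hold a core and 1.94% hold at least 2. Windows were found for 33 of the 50 members. Of their 42 windows, 8 (19.0%) hold a core, those of *Dkk1*, *Sp5*, *Fzd7*, *Lef1*, *Tcf7l2*, *Wnt3*, *Wnt5b* and *Wnt11*, so the members hold it about as often as all windows do. Starts here are those of RefSeq. In GENCODE M21 the *Dkk1* gene spans chr19:30545863-30549665, which reaches beyond its RefSeq start, so both *Dkk1* cores lie inside that gene. A match is a description of the letters and not of binding.

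The secreted antagonists split. *Dkk1*, which blocks LRP5 and LRP6, was at 5.65 and 5.25 TPM in c-Kit+ cells against 26.3 and 23.1 TPM in c-Kit- cells (log2 fold change -2.03 ± 0.31 SE, adjusted p = 0.000762). *Sfrp1*, a secreted protein that binds WNT ligands, was at 5.47 and 2.65 TPM against 28.6 and 17.8 TPM (-2.38 ± 0.359, adjusted p = 0.000724), with -2.99 without c-Kit+ replicate 1. Its relative *Sfrp2* went the other way, at 24.9 and 32.2 TPM in c-Kit+ cells against 4.29 and 4.88 TPM (2.67 ± 0.35, adjusted p = 0.000329). *Lgr5*, a receptor for R-spondins, was lower in c-Kit+ cells, at 0.84 and 3.42 TPM against 8.83 and 7.19 TPM (-2.57 ± 0.543, adjusted p = 0.00461), and with the effective length offset this call was lost (adjusted p = 0.0562). Without c-Kit+ replicate 2 the log2 fold change of *Lgr5* was -3.68. *Rspo3* was too low to be tested, at 3.01 and 2.21 TPM against 0.55 and 0.35 TPM.

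**Figure D2:**
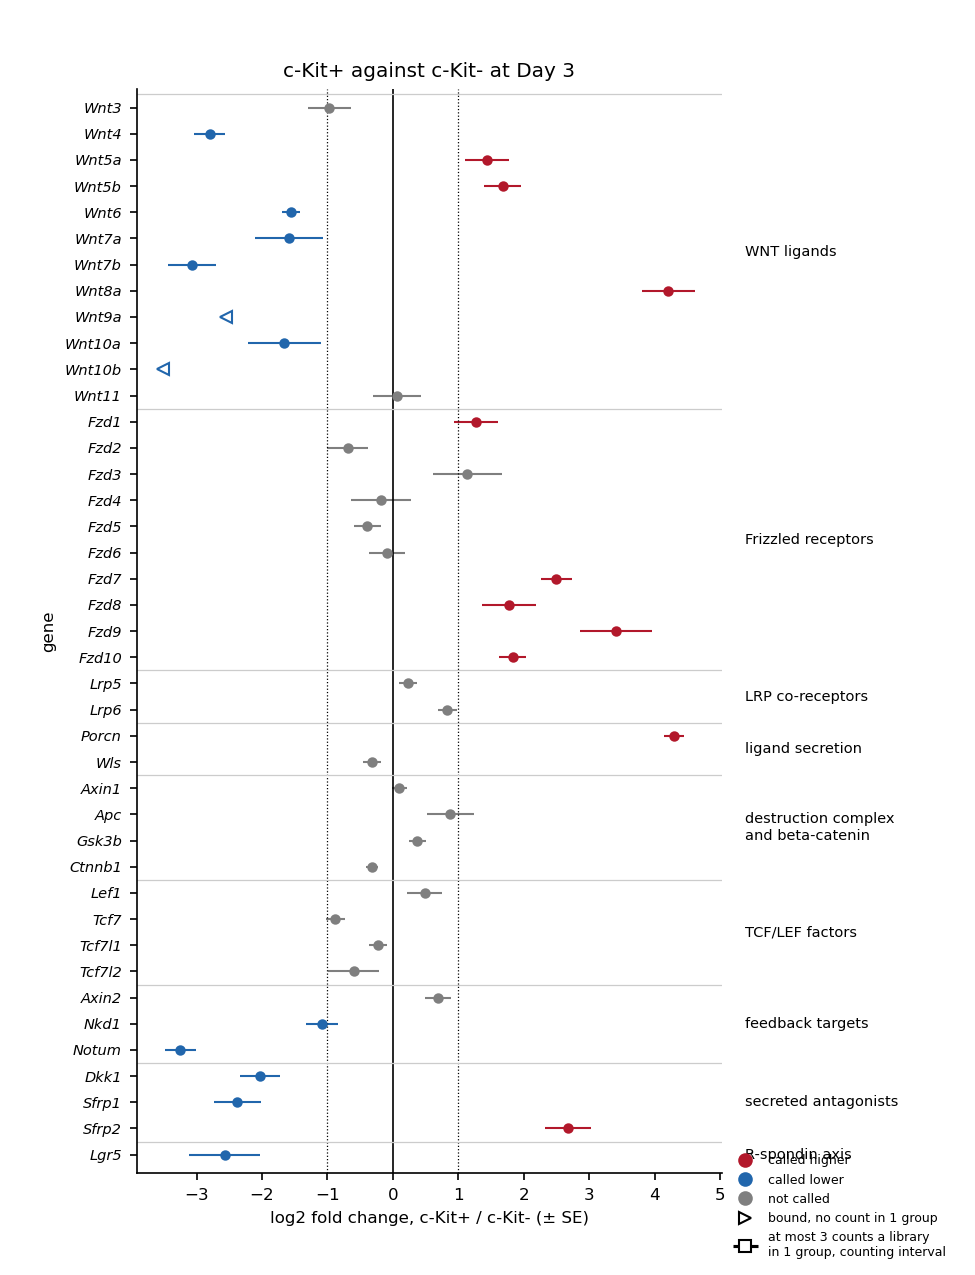
Log2 fold change of c-Kit+ against c-Kit- cells for the 41 members tested, by role, with SE bars. Red points were called higher and blue points lower, dotted lines mark 2-fold, and open triangles are bounds for *Wnt9a* and *Wnt10b*, which had no count in c-Kit+ cells. All coloured Frizzled points lie to the right, while 7 of the 10 ligands called lie to the left.

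Of 61 other genes of the pathway, 43 were tested between the sorted populations, and 5 were called higher and 6 lower in c-Kit+ cells, which is 8.2% and 9.84% of the list or 11.6% and 14% of those tested, beside the 9.98% and 12.9% of all genes. The higher ones included *Tle4*, a Groucho corepressor, at 40.4 and 43.0 TPM against 7.83 and 4.43 TPM (log2 fold change 2.90 ± 0.239 SE, adjusted p = 2.13e-05), and the receptors *Ror2*, *Ptk7* and *Lgr4*, between 2.51-fold and 3.07-fold. The lower ones included *Bcl9l*, a coactivator of β-catenin, at 32.8 and 41.6 TPM against 201 and 191 TPM (-2.37 ± 0.121, adjusted p = 1.48e-06), and *Dvl1*, which relays the signal from Frizzled (-1.64 ± 0.153, adjusted p = 4.46e-05). *Bcl9*, the paralog of *Bcl9l*, was 2.35-fold higher. The median over the 43 genes was 0.02.

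The second comparison asked how the pathway stands in Day 6 BV+SC+ cells relative to EpiSCs, the start of the conversion. *Porcn* was 23.1-fold higher in BV+SC+ cells, and the feedback targets *Axin2*, *Sp5* and *Notum* were higher too, while *Nkd1* was lower. The Frizzled genes *Fzd2*, *Fzd3*, *Fzd4* and *Fzd6*, the co-receptor *Lrp5*, *Tcf7l1*, *Tcf7l2* and *Sfrp2* were lower, and *Fzd10* and *Wnt7b* were higher. The media differ in agents that act on the pathway, XAV939 in EpiSCs and CHIR99021 in the protocol of BV+SC+ cells (in doubt for replicate 2). The study derived EpiSCs from embryos and also from embryonic stem cells with the reporters of the BV+SC+ cells. The titles of the EpiSC libraries do not name the line. Cell line, medium and cell state therefore cannot be told apart. The 5 primed epiblast markers summed to 1249 to 1325 TPM in EpiSCs and to 38.0 and 111.7 TPM in BV+SC+ cells, and the 7 germ cell and naïve markers to 7.86 to 51 TPM and to 2043 and 2099.9 TPM. The 8 trophoblast markers summed to 30.2 to 47.4 TPM in EpiSCs and to 201.6 TPM in replicate 1 and 66.8 TPM in replicate 2 of BV+SC+ cells, with *Gata2*, *Krt8*, *Krt18* and *Peg10* called higher, and the 6 fibroblast markers to 23.1 to 37.7 TPM against 2.89 and 4.86 TPM, with *Thy1* called lower. The part of these markers in the differences of the WNT genes was not tested.

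Of the 50 members, 6 were called higher and 9 lower, which is 12.0% and 18% of them, beside 16.8% and 17.2% of the 11792 genes tested. Of the 31 members tested they make 19.4% and 29%. Here too a member can pass the filter through the group where it is high, as did *Wnt7b*, *Sp5* and *Notum*, with at most 3 counts in each EpiSC library. For the higher calls these shares lie on either side of the background, so no difference from it is read. For the lower calls the share of the 50 is near the background, and no difference is read there either. A total of 19 members were not tested, 16 of them ligands, and 4 of the 19 were at the floor in both groups. The median log2 fold change of the 31 members tested was -0.61, against 0.05 over all genes tested. Setting the tested genes at the floor in EpiSCs to their bounds or to the ratio of their summed counts could not move this median, since they stay above it. Depth was 14778809 and 18099059 counts in BV+SC+ cells and at most 3070115 in EpiSCs.

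The BV+SC+ libraries differed from each other at many members. Among 36 members above 1 TPM in replicate 1 or 2, 17 differed by over 2-fold in CPM, 15 of them higher in replicate 1 (medium tag 2iJi) and 2 higher in replicate 2 (GK15). Over all 13574 such genes, 16.7% differed by over 2-fold, 1300 of them higher in replicate 1 and 967 in replicate 2. With 1 library per medium tag there is no test of this difference. *Wls* differed 14.7-fold and *Wnt3* 30.8-fold between these libraries, with 515 and 43 counts and 201 and 8 counts. Each result is therefore given with both libraries, and where leaving out one of them changes a call, the values without it follow.

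Ligands were scarce in both groups. The 19 ligands summed to 17.3 to 22.1 TPM in EpiSCs and to 39.1 and 12.4 TPM in BV+SC+ cells, so the groups overlapped. *Wnt3* led in 2 of the EpiSC libraries, at 11.3, 4.63 and 10.3 TPM in the 3 of them, and was at 7.93 and 0.26 TPM in BV+SC+ cells. It was not called (log2 fold change -1.04 ± 1.02 SE, adjusted p = 0.412), but without BV+SC+ replicate 1 it was called lower (-4.89, adjusted p = 2.9e-05). *Wnt7b* had no count in EpiSCs and was at 2.14 and 6.25 TPM in BV+SC+ cells, at least 7.38-fold higher (adjusted p = 0.00345). The bound was 3.68-fold from BV+SC+ replicate 1 alone (60 counts) and 11.1-fold from replicate 2 alone (210 counts). *Wnt6* had no count in EpiSCs either and was at 11.3 and 0.14 TPM in BV+SC+ cells, where 140 of its 141 counts came from replicate 1, and it was not tested. *Wnt8a* stayed low, at 0.38, 0 and 1.92 TPM against 6.48 and 0.68 TPM, and was not tested.

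Of the 12 receptor and co-receptor genes, 5 were called lower in BV+SC+ cells, 1 was called higher and 6 were not called. *Fzd2* was at 82.1, 85.4 and 84.1 TPM in EpiSCs and at 7.09 and 5.07 TPM in BV+SC+ cells, a 13.1-fold difference (log2 fold change -3.71 ± 0.173 SE, adjusted p = 6.31e-06). *Fzd4* was at 3.83, 3.64 and 3.17 TPM against 0.39 and 0.16 TPM (-3.60 ± 0.529, adjusted p = 0.000843), with -4.28 without BV+SC+ replicate 1. *Fzd3* was at 8.49, 12.4 and 7.62 TPM against 2.68 and 3.24 TPM (-1.60 ± 0.309, adjusted p = 0.00306). In these 3 genes, as in *Fzd6* (14.3, 11.5 and 16.1 TPM against 4.81 and 4.79 TPM, -1.46 ± 0.231, adjusted p = 0.00119), the groups did not overlap. *Fzd10* was the gene called higher, at 3.62, 6.15 and 5.80 TPM in EpiSCs and at 23.4 and 10.0 TPM in BV+SC+ cells (1.76 ± 0.396, adjusted p = 0.00632), and 1.06 without BV+SC+ replicate 1. *Fzd1*, *Fzd5*, *Fzd8* and *Fzd9* were not called. Both *Fzd1* and *Fzd8* were lower without BV+SC+ replicate 1 (-1.85 and -1.17), and *Fzd8* also without EpiSC replicate 1 (-1.43). *Fzd7*, the most abundant Frizzled gene of both groups, was 1.93-fold lower, at 100.1, 90.9 and 95.8 TPM against 47.8 and 46.1 TPM (-0.95 ± 0.11, adjusted p = 0.000275), just inside the 2-fold limit. The co-receptor *Lrp5* was at 64.3, 66.8 and 66.5 TPM against 9.59 and 11.9 TPM (-2.54 ± 0.145, adjusted p = 1.22e-05), whereas *Lrp6*, at 26.4, 30.0 and 33.9 TPM against 14.0 and 15.8 TPM, was 1.76-fold lower (-0.82 ± 0.126, adjusted p = 0.00108).

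For ligand secretion, *Porcn* was at 5.02, 4.58 and 3.14 TPM in EpiSCs and at 102 and 89.5 TPM in BV+SC+ cells (log2 fold change 4.53 ± 0.22 SE, adjusted p = 7.08e-06). Both BV+SC+ libraries stood far above all EpiSC libraries. *Wls* was at 6.18, 7.80 and 6.41 TPM in EpiSCs and at 18.8 and 1.31 TPM in BV+SC+ cells, respectively above and below them. It was not called (0.62 ± 0.85, adjusted p = 0.559), was higher without replicate 2 (1.52, adjusted p = 8.12e-05) and lower without replicate 1 (-2.26, adjusted p = 0.000191).

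For β-catenin and its destruction complex no member passed at 2-fold, and *Axin1* was not called. *Ctnnb1* was at 492, 518 and 552 TPM in EpiSCs and at 387 and 441 TPM in BV+SC+ cells and was not called (-0.20 ± 0.101, adjusted p = 0.127). *Gsk3b* was at 24.0, 30.4 and 28.5 TPM against 26.5 and 21.6 TPM (-0.23 ± 0.151, adjusted p = 0.234). *Apc* was 1.89-fold higher, at 28.0, 36.0 and 41.6 TPM against 55.8 and 47.5 TPM (0.92 ± 0.11, adjusted p = 0.00032), short of 2-fold, which it passed without BV+SC+ replicate 2 (1.01). Among the transcription factors, *Tcf7l1* was 2.81-fold lower in BV+SC+ cells, at 224, 162 and 165 TPM against 80.5 and 48.3 TPM (-1.49 ± 0.218, adjusted p = 0.000832). *Tcf7l2* was 6.52-fold lower, at 9.22, 12.2 and 18.3 TPM against 1.43 and 1.63 TPM (-2.70 ± 0.369, adjusted p = 0.000601), and *Tcf7* 1.53-fold lower, at 85.3, 74.8 and 74.6 TPM against 43.1 and 47.6 TPM (adjusted p = 0.00703). *Lef1* was not called (0.69 ± 0.461, adjusted p = 0.234). Its BV+SC+ libraries fell on both sides of the 35.0, 35.4 and 41.1 TPM of EpiSCs, at 23.8 TPM in replicate 1 and 93.9 TPM in replicate 2. Without replicate 1 it was called higher (1.36, adjusted p = 1.49e-06), and without replicate 2 its log2 fold change was -0.58.

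Of the 4 feedback targets 3 were higher in BV+SC+ cells. *Axin2*, at chr11:108920349-108950783 on the plus strand, was at 4.41, 9.26 and 5.32 TPM in EpiSCs and at 61.4 and 15.4 TPM in BV+SC+ cells (log2 fold change 2.84 ± 0.533 SE, 7.16-fold, adjusted p = 0.00268). Its log2 fold change was 1.59 without BV+SC+ replicate 1 and 3.50 without replicate 2, and the call was kept in both cases. *Sp5* had 1 count over the 3 EpiSC libraries, in replicate 1 (0.31 TPM), and was at 15.1 and 3.36 TPM in BV+SC+ cells (adjusted p = 0.00237). Its summed counts were 82.0-fold higher, with a 95% counting interval of 14.6 to 3247.5. That ratio was 32.1-fold (5.57 to 1286.9) without BV+SC+ replicate 1 and 140.0-fold (24.9 to 5551) without replicate 2. It was 53.2-fold and 58.2-fold without EpiSC replicate 2 or 3, and without EpiSC replicate 1 no count was left, so the difference was at least 9.11-fold. *Notum* was at 0.58, 0 and 1.3 TPM in EpiSCs and at 51.4 and 23.0 TPM in BV+SC+ cells (adjusted p = 0.000202), 55.5-fold higher in summed counts with an interval of 23.7 to 171. This was 37.7-fold (16.0 to 116.7) without BV+SC+ replicate 1, 36.0-fold without EpiSC replicate 2 and 98.5-fold (27.2 to 814.1) without EpiSC replicate 3. In all 3 genes both BV+SC+ libraries exceeded every EpiSC library, and replicate 1 exceeded replicate 2 by 3.96-fold in *Axin2*, 4.59-fold in *Sp5* and 2.13-fold in *Notum*. *Nkd1* was lower, at 4.51, 4.84 and 5.36 TPM against 2.36 and 0.48 TPM (-1.72 ± 0.612, adjusted p = 0.0424). The call of *Nkd1* was lost with any of the EpiSC libraries left out (adjusted p from 0.0948 to 0.114), and without BV+SC+ replicate 2 its fold fell just under 2 (-0.99), while without replicate 1 the log2 fold change was -3.22.

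*Sfrp2* was at 20.7, 23.4 and 24.6 TPM in EpiSCs and at 13.4 and 5.98 TPM in BV+SC+ cells (log2 fold change -1.17 ± 0.353 SE, adjusted p = 0.0224). This call was lost with any of the EpiSC libraries left out (adjusted p from 0.0533 to 0.0767) and fell under 2-fold without BV+SC+ replicate 2 (-0.72), while without replicate 1 the log2 fold change was -1.82. *Sfrp1* was at 50.4, 55.4 and 58.1 TPM against 43.3 and 15.3 TPM and was not called (-0.83 ± 0.361, adjusted p = 0.0839), though it was without BV+SC+ replicate 1 (-1.73, adjusted p = 4.17e-07). *Dkk1*, *Rspo3* and *Lgr5* were too low to be tested. *Dkk1* had 1 count over the EpiSC libraries and was at 3.02 and 0.21 TPM in BV+SC+ cells, with 59 counts in replicate 1 and 5 in replicate 2. *Rspo3* had no count in EpiSCs and was at 3.22 and 0.78 TPM in BV+SC+ cells (62 and 18 counts). *Lgr5* was at 0.3 and 0.04 TPM there, with 6 counts over the EpiSC libraries.

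**Figure D3:**
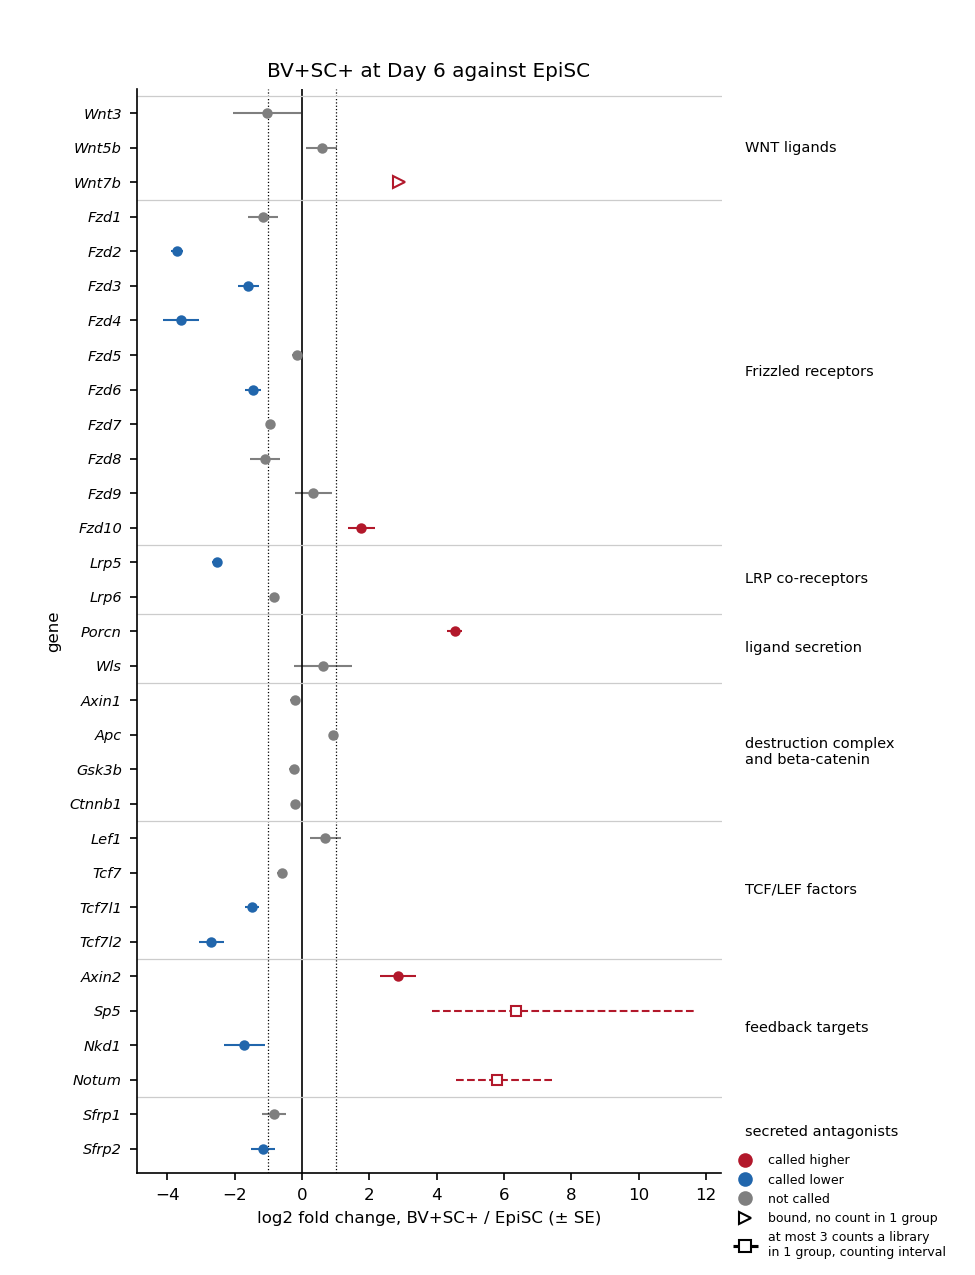
Log2 fold change of BV+SC+ cells against EpiSCs for the 31 members tested, by role, with SE bars. Colours and dotted lines are as in the plot of the sorted cells, the open triangle is the bound for *Wnt7b*, which had no count in EpiSCs, and open squares with dashed 95% counting intervals are ratios of summed counts for *Sp5* and *Notum*, with at most 3 counts in each EpiSC library. *Porcn*, *Axin2*, *Sp5* and *Notum* lie far to the right, and *Fzd2*, *Fzd4*, *Lrp5* and *Tcf7l2* to the left.

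Among the 61 other pathway genes, 41 were tested here, and 4 were called higher and 14 lower, which is 6.56% and 23.0% of the list or 9.76% and 34.1% of those tested, beside the 16.8% and 17.2% of all genes. The median log2 fold change was -0.38. Of the 10 planar polarity genes 6 were lower, such as *Celsr1* at 11.6, 16.3 and 12.8 TPM against 1.12 and 0.89 TPM (-3.68 ± 0.217, adjusted p = 1.26e-05), and 2 were higher, *Daam1* and *Prickle3*. *Ccnd1* and *Myc*, 2 growth genes often listed as WNT targets, were 47.7-fold and 24.5-fold lower (adjusted p = 1.42e-06 and 9.87e-05). Of the other 5 listed targets, *Bambi* was not called (-0.38 ± 0.259, adjusted p = 0.24) and 4 were not tested. *Cdx1* among them had no count in EpiSCs and was at least 3.72-fold higher in BV+SC+ cells, at 7.28 TPM in replicate 1 and 1.67 TPM in replicate 2. The summed counts of *Sp8* were 3.82-fold higher (counting interval 1.69 to 10.7), with 71 counts in replicate 1 and 18 in replicate 2. Its TPM was 1.87 and 0.4 in these libraries, against 0.27, 0.28 and 0.34 in EpiSCs. *Ror2*, a receptor for *Wnt5a*, was 32.0-fold higher, at 0.92, 1.20 and 0.21 TPM against 22.7 and 26.1 TPM (adjusted p = 3.55e-05). The R-spondin gene *Rspo1* was 16.9-fold lower (adjusted p = 0.000392).

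Of the 30 members tested in both comparisons, 6 were called in both, beside 1056 (10.4%) of all 10197 genes tested in both. The direction was the same in 3 of these 6 members (50%) and in 711 of the 1056 genes (67.3%). *Porcn* and *Fzd10* were higher in c-Kit+ cells than in c-Kit- cells and higher in BV+SC+ cells than in EpiSCs, and *Nkd1* was lower in both. *Wnt7b* and *Notum* were lower in c-Kit+ cells and higher in BV+SC+ cells, and *Sfrp2* was higher in c-Kit+ cells and lower in BV+SC+ cells. The calls of *Nkd1* and *Sfrp2* against EpiSCs were lost with any EpiSC library left out, and that of *Nkd1* in the sort with the length offset. The share with the same direction therefore rests in part on unstable calls. The comparisons share no libraries, and the difference between their effects was not tested.

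**Figure D4:**
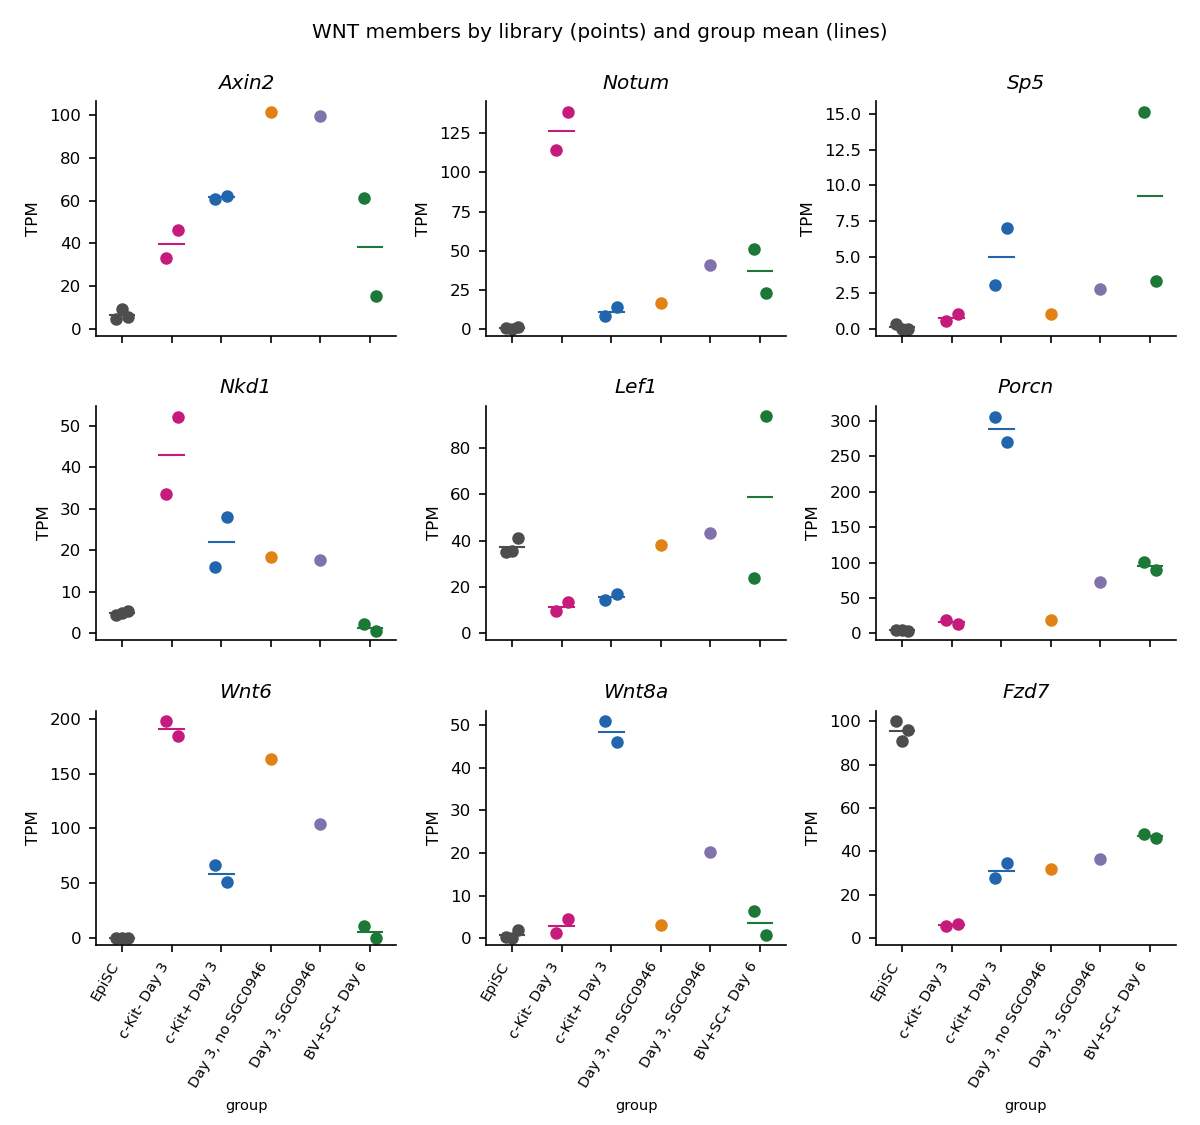
TPM of 9 members in each library (points) and the mean of each group with at least 2 libraries (lines), with groups along the x axis. In *Axin2*, *Sp5* and *Lef1* the BV+SC+ points lie far apart, *Porcn* is highest in the c-Kit+ libraries, and *Wnt6* and *Notum* are highest in the c-Kit- libraries. Levels in the sorted libraries and in the others come from separate experiments, and differences between them were not tested.

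The third comparison set Day 3 cells with SGC0946 beside Day 3 cells without it, to ask how the pathway stands when DOT1L is inhibited during the first 3 days. With 1 library each there is no test, and the values compare 2 libraries. *Porcn* was higher with SGC0946, at 72.6 TPM against 19.4 TPM (295 and 78 counts), a log2 change of 1.85 on the TPM + 1 scale, and a log2 ratio of counts with a 95% counting interval of 1.49 to 2.24. *Wnt8a* was at 20.3 TPM against 3.12 TPM (83 and 12 counts), a log2 change of 2.37, with an interval of the count ratio of 1.85 to 3.74. *Fzd9* was at 14.4 TPM against 4.60 TPM (log2 change 1.46) and *Notum* at 40.5 TPM against 16.6 TPM (1.23). *Sfrp1* was at 7.40 TPM against 3.16 TPM (1.01, the value nearest to the limit).

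Another 2 ligands were past 2-fold in the other direction. *Wnt3* was at 5.77 TPM with SGC0946 and at 15.3 TPM without it (log2 change -1.27, interval of the count ratio -1.92 to -0.87). *Wnt7b* was at 1.31 TPM against 3.91 TPM (-1.09, interval -2.70 to -0.52), from 11 and 31 counts. The members past 2-fold make 10.0% (higher) and 4.0% (lower) of the 50, against 6.33% and 3.45% of the 14038 genes above 1 TPM in either. Of the 44 members with a value they make 11.4% and 4.55%, and all 7 had counting intervals off 0. *Wnt6* remained the most abundant ligand of both libraries, at 104 TPM with and 163 TPM without SGC0946 (-0.65), followed by *Wnt5a* at 66.5 and 85.3 TPM. The median log2 change was -0.01 over the 44 members with a value and 0.01 over all 14038 genes. Of the other members, 37 were within 2-fold, 4 were at the floor in both libraries and 2 had TPM of at most 1 in both.

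*Axin2* and *Nkd1* were nearly level between these libraries, unlike the feedback target *Notum*. *Axin2* was at 99.4 TPM with SGC0946 and 102 TPM without it, a log2 change of -0.03, and the interval of its count ratio ran from -0.21 to 0.11. *Nkd1* was at 17.7 and 18.3 TPM, *Lef1* at 43.2 and 38.2 TPM and *Ctnnb1* at 556 and 539 TPM, all within 0.17 of 0 on the log2 scale. *Tcf7l1* was at 66.1 and 66.0 TPM, *Tcf7l2* at 20.0 and 19.1 TPM and *Tcf7* at 76.6 and 97.0 TPM. *Gsk3b* was at 41.6 and 46.1 TPM and *Apc* at 35.3 and 35.4 TPM. *Axin1* was at 67.3 and 87.7 TPM (-0.38, interval of the count ratio -0.35 to -0.02). These genes of the core all stayed within 2-fold, and *Tcf7* changed by -0.34. *Wls* was at 68.1 and 88.9 TPM (-0.38), and *Sp5*, at 2.78 and 1.06 TPM from 14 and 5 counts, had an interval from -0.13 to 3.25. The most abundant antagonist was *Dkk1*, at 184 TPM with and 288 TPM without SGC0946 (-0.64, interval -0.73 to -0.51).

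Markers moved with this pair of libraries too. *Pou5f1*, *Sox2* and *Nanog* summed to 715 TPM with SGC0946 and 132 TPM without it, the 7 germ cell and naïve markers to 327 and 88.4 TPM, and the 8 trophoblast markers to 2387 and 2941 TPM. The 6 endoderm markers summed to 10.3 TPM with SGC0946 and 23.4 TPM without it, with *Gata6* and *Gata4* (1 and 9 counts) past 2-fold lower. The 6 mesoderm markers summed to 3.04 and 1.46 TPM, with *Eomes* past 2-fold higher (20 and 2 counts), and the 6 fibroblast markers to 283.1 and 270.8 TPM. *Kit* was at 119.6 and 102 TPM. The part of these markers in the differences of the WNT genes was not tested. Of the 7 members past 2-fold, *Porcn*, *Wnt8a* and *Fzd9* were higher with SGC0946 and had been called higher in c-Kit+ cells, *Wnt7b* was lower in both, and *Notum* and *Sfrp1* were higher with SGC0946 and lower in c-Kit+ cells. *Wnt3* was not called in the sort. Of the 61 other pathway genes, 1 was past 2-fold, *Frzb*, a secreted antagonist (log2 change 1.16).

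**Figure D5:**
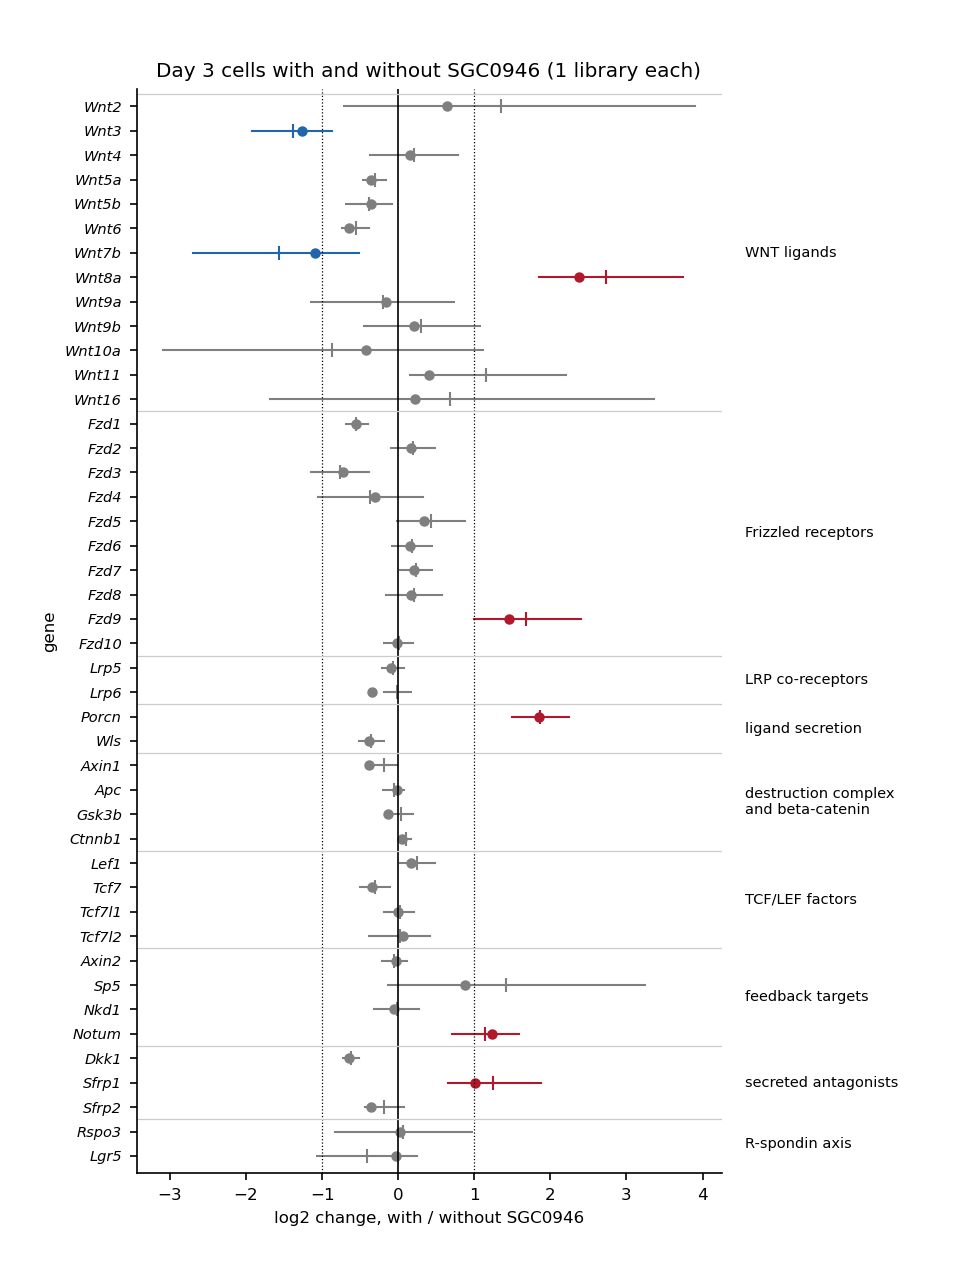
Log2 change with against without SGC0946 for the 44 members above 1 TPM in either library. Dots are ratios of TPM + 1, ticks are ratios of counts with 95% exact counting intervals (lines), and dotted lines mark 2-fold. *Wnt8a*, *Porcn*, *Fzd9*, *Notum* and *Sfrp1* lie past 2-fold to the right and *Wnt3* and *Wnt7b* to the left, with 1 library per condition and no replicate check.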

How the data were processed

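The authors aligned reads with Bowtie2 and estimated abundance with RSEM (version 1.3.1 in the submitters' processing notes, build mm10), and deposited for each library the expected counts per gene, not normalized between libraries, the TPM and the effective length, the transcript length open to fragments (unit: other). The sorted and the other libraries list different genes, so tests stayed within libraries that list the same genes. A shared list does not show that EpiSC and BV+SC+ libraries were made or sequenced together, so a batch difference between them is not excluded. The methods and the labels of the 29267-gene libraries name different kits, and the strand setting is not given in the sources used here.

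The expected counts, rounded to whole numbers, went into edgeR 4.0.16 under R 4.3.3 with only the groups compared (filterByExpr, TMM factors, glmQLFit, glmQLFTest). Calls needed a Benjamini-Hochberg adjusted p under 0.05 over all genes tested and a fold over 2. The study's threshold has the same numbers and does not say whether p is adjusted. The SGC0946 libraries were compared by log2 ratios of TPM with a pseudocount of 1, for genes above 1 TPM in either, with exact Clopper-Pearson 95% intervals on counts, which cover counting error only. Alternatives were RLE factors, DESeq2 1.42.0, other filters, an effective length offset, a replicate block, other call rules and each replicate left out. Symbols and gene coordinates are from GENCODE M21 on GRCm38, and promoter windows are from RefSeq. Exons of 12 members overlap a gene on the opposite strand (3.2% to 29.4% of exon bases). At 98% identity over at least 75 bases (BLAST+ 2.17.0), *Lrp6* and *Dkk1* share 4.0% and 3.63% of a transcript with another gene on the same strand. On the opposite strand 14 members do, among them *Wnt5a* (65.1% of a transcript), *Ctnnb1* (57.9%), *Notum* (51.5%) and *Axin2* (19.9%). The part of such sequence in the counts was not tested. No replicate pair had identical values, and all differed by more than sampling noise. The scripts were tested on simulated data. Python 3.11.15, NumPy 2.4.6, pandas 2.3.3, SciPy 1.17.1 and Matplotlib 3.10.9 were used.

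Values in every library are given for members called in a tested comparison (the 15 with the highest mean TPM in its libraries where more were called), for those past 2-fold with an interval off 0 with SGC0946, and always for *Axin2*, *Lef1*, *Sp5*, *Nkd1*, *Notum*, *Ctnnb1*, the other TCF/LEF genes, *Gsk3b*, *Apc*, *Porcn* and *Wls*. Other genes named, among them the examples of other pathway genes, were chosen after their values were seen. The members and lists were chosen with earlier results of these data known. Samples of the other assays were not analysed here.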

Additional observations from a re-analysis of the deposited data

How the results depend on the processing

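Between the sorted populations, the 22 members called became 12 (6 higher, 6 lower) when each library had to hold at least 10 counts of a gene, a filter that removes genes low in 1 population. Under the other alternatives the number stayed between 17 (effective length offset) and 28 (no limit on the fold), and was 19 with DESeq2. The replicate block gave 22 calls (10 higher, 12 lower) for the sorted cells, and 16 in place of 15 for BV+SC+ cells against EpiSCs. The numbers were not taken to pair libraries, because the labels do not say that they do. The deviations of same-numbered libraries had correlations of 0.115 over 5509 genes in the sorted cells. In the other comparison they were -0.0349 and 0.00367. With 2 libraries in a group the deviations mirror each other, so these values cannot decide whether numbers mark pairs. BV+SC+ cells against EpiSCs gave 2 higher and 9 lower with at least 10 counts in each library and 11 higher and 11 lower with no filter. Leaving out 1 library gave 18 to 25 calls in the sorted cells and 13 to 22 in BV+SC+ cells against EpiSCs, with the lone library of a group assumed to vary like the others. The split of the latter was 7 higher and 15 lower without BV+SC+ replicate 1, and 12 higher and 7 lower without replicate 2. With SGC0946 the number past 2-fold was 6 to 9, and *Sfrp1* fell just inside 2-fold with rescaled TPM (log2 change 0.99).

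Signs that turned belonged to members that were not called. Between the sorted populations, *Wnt11* gave -0.07 and *Axin1* -0.02 with the effective length offset, and leaving out 1 library *Wnt11* ranged from -0.35 to 0.58, *Fzd4* from -0.41 to 0.05 and *Fzd6* from -0.36 to 0.18. In BV+SC+ cells against EpiSCs, *Wls* gave -0.31 with the replicate block, and leaving out 1 library *Wls* ranged from -2.26 to 1.52, *Fzd9* from -0.31 to 0.94 and *Lef1* from -0.58 to 1.36. The block also called *Wnt3* (-1.81, adjusted p = 0.048). Between the sorted populations DESeq2 did not call *Fzd1*, *Wnt7a* and *Wnt10a*, and the effective length offset did not call *Wnt5a*, *Wnt7a*, *Wnt10a*, *Nkd1* and *Lgr5*. Calls of *Wnt5a*, *Wnt7a*, *Wnt10a*, *Fzd1*, *Fzd8* and *Nkd1* there were each lost without at least 1 of the libraries. The cause was not tested. In the sorted cells 9 members did not pass the filter (7 ligands, *Sp5* and *Rspo3*), and in the other comparison 19 did not (16 ligands, *Dkk1*, *Rspo3* and *Lgr5*). *Wnt9a* gave no value without c-Kit- replicate 1.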
